A study of Mus musculus with 28 samples.

Results

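SB203580, an inhibitor of the p38 MAP kinases, was compared with its DMSO control 1 day after mouse embryonic fibroblasts (MEFs) had been put into induction towards pluripotency. The comparison rests on 4 of the 28 RNA-seq libraries of the series, 2 in which the inhibitor was present during induction (p38i) and 2 of the control (DMSO), chosen by their column names. All 4 were made from MEFs of wild-type mouse embryos, which the study describes as E13.5 embryos of a cross that carries the OG2 reporter, a GFP gene driven by the Oct4 promoter, and all 4 carried retroviral Oct4, Klf4 and Sox2 and grew in iCD1 medium. The sample labels give the control only as day 1 of OKS reprogramming, and its DMSO comes from the study's methods. The labels do not say whether the 2 libraries of a group came from separate cultures. The p-values measure the spread between libraries of a group, pooled over the 14 groups of the series, and that spread may be technical. Values read for Pou5f1 (the gene of Oct4), Klf4 and Sox2 include the retroviral copies.

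The p38 kinases are stress-activated MAP kinases that sit below the kinases MKK3 and MKK6 and act through MK2, the MEF2 and ATF2 factors and the stability of cytokine messenger RNAs. SB203580 occupies the ATP site of the alpha and beta forms, encoded by Mapk14 and Mapk11, and is known to reach some other kinases too. In the first days of induction fibroblasts begin to shut down their matrix and mesenchymal genes while the introduced factors act, and genes of pluripotency come on later.

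Each library's deposited values are whole numbers with a total of 991762 to 992123, and were read as TPM, a gene's length-corrected share of its library scaled to a fixed total, rounded down. Depth is therefore unknown. A value of 0 need not mean that a gene was off, and values of genes with near-identical copies are uncertain. The mitochondrial gene mt-Nd3 was listed at 0 in 1 DMSO library and at 519 in the other. Its near-identical copy Gm28438 had 1420 and 1224 in the same libraries. Between 12934 and 13444 genes had a value of at least 1, and mitochondrial genes, without such copies, took 3.06% to 3.31% of a library. Differences are given on the log2(value + 1) scale with their standard error (SE), and understate the change of low genes, and folds are ratios of the means of the 2 libraries. A gene was called when limma, fitted to all 28 libraries, gave an adjusted p under 0.05. The labelled cell type stood out in every library. The 11 fibroblast markers summed to 9866 and 9675 in DMSO and to 8831 and 8873 in p38i. Of these markers 7 were called lower in p38i and none higher, where 12.6% of all genes were lower, and their median difference was -0.62. Nanog and Dppa3, genes of pluripotent cells, were listed at 0 in all 4 libraries, and the skeletal muscle markers summed to 0. In bulk RNA, fewer cells of a type and less RNA per cell cannot be told apart.

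Promoter sequence is shown for genes that rose and whose windows held a known element: both metallothioneins, lysosomal genes and targets of the stress factor ATF4. A sterol element was searched for too, and none of the 14 genes of cholesterol and fatty acid synthesis that rose and had a window held it. The windows are the 250 bases before the RefSeq start (GRCm38.p6), 5′ to 3′ on the gene's strand. Capitals mark the core of the metal response element (TGCACNC or TGCGCNC) in Mt1 and Mt2.
Mt2, chr8:94172368-94172617, plus strand: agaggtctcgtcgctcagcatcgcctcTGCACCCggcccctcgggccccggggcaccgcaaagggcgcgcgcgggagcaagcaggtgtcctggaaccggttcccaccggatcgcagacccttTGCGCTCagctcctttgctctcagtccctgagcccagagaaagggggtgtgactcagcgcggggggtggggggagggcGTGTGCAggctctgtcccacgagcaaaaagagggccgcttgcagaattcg
Mt1, chr8:94178839-94179088, plus strand: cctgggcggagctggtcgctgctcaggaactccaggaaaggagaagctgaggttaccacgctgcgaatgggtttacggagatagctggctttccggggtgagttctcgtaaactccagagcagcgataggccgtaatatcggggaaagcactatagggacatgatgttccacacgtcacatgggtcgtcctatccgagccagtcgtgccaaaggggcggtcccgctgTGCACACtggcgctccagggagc
In the lysosomal genes capitals mark CACGTG, the core of the element that the factor TFEB binds.
Lamp1, chr8:13158911-13159160, plus strand: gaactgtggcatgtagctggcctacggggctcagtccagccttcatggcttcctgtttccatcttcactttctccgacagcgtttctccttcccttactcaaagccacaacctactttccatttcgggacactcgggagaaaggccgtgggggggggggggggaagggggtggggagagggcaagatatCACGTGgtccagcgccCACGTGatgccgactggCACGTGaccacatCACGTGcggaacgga
Mcoln1, chr8:3500269-3500518, plus strand: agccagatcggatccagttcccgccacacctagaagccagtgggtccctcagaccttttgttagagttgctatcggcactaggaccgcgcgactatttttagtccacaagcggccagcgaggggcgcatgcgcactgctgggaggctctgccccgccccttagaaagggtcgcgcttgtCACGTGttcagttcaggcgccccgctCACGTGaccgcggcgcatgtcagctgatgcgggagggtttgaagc
Ctsd, chr7:142387828-142388077, minus strand: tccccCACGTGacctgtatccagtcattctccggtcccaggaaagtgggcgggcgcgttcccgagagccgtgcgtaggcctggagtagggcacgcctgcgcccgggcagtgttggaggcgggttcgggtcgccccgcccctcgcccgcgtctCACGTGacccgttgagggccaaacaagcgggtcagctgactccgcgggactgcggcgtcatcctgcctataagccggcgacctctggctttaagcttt
In ATF4 targets capitals mark the CARE letters TGATGNAAN, here on the opposite strand.
Chac1, chr2:119350992-119351241, plus strand: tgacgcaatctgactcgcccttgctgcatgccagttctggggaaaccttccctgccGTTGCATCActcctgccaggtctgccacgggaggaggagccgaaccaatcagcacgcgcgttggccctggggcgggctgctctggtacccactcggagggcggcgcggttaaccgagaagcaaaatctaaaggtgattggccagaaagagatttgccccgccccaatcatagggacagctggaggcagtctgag
Aars, chr8:111033592-111033841, plus strand: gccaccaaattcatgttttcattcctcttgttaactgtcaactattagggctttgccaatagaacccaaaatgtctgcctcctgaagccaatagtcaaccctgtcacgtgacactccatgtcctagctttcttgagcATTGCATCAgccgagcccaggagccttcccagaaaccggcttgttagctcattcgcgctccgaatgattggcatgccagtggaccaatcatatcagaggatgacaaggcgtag

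On day 1, 2128 of the 13230 genes tested were called (16.1%), 459 higher in p38i (3.47%) and 1669 lower (12.6%). Most differences were small, since 20 of the higher genes and 228 of the lower ones differed by at least 2-fold on this scale. Both p38i libraries lay above both DMSO libraries in 13.5% of all genes tested and below them in 33.8%. The libraries of a group stood apart by a root mean square of 0.363 (DMSO) and 0.348 (p38i) on the log2 scale, and libraries of different groups by 0.444 to 0.482. Higher genes were 21.57% of the calls with the authors' scaling, 41.12% after quantile normalization (637 higher, 912 lower) and 39.36% after median centring (753 higher, 1160 lower), and the median difference over all genes tested was -0.085. The number called was 1150 without DMSO replicate 1 and 1299 without p38i replicate 2, and a fit of only the 4 libraries called 853. The smallest p that permuting the labels of 2 and 2 libraries allows is 0.333 in an exact test, so the calls rest on the spread that limma shares over genes and groups.

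**Figure D1:**
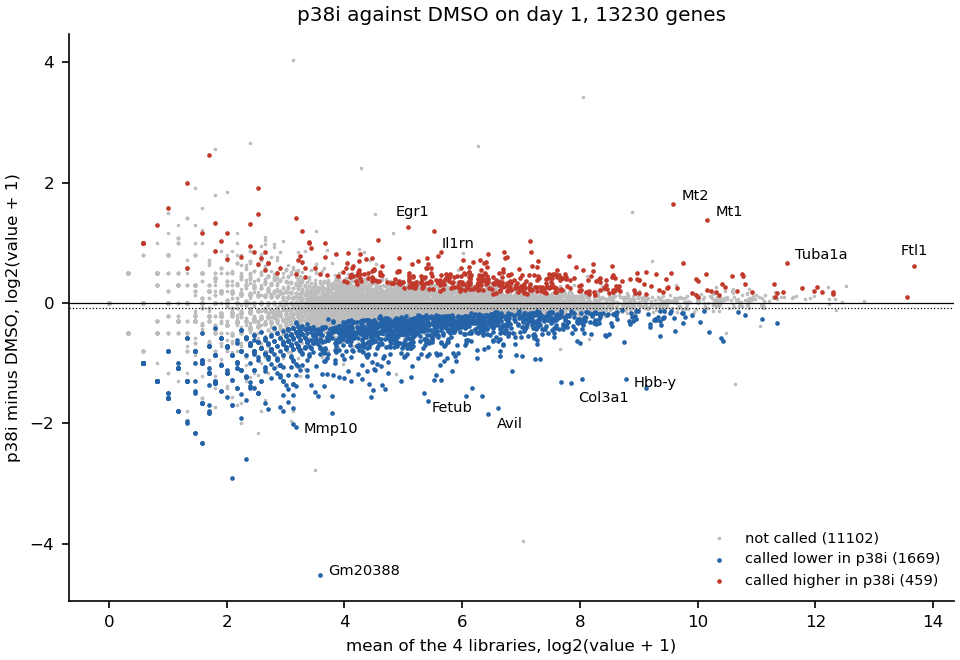
Difference between p38i and DMSO on day 1, log2(value + 1), against the mean of the 4 libraries for 13230 genes, with the 459 genes called higher in red, the 1669 called lower in blue and the median difference as a dotted line. The called genes lie mostly below 0, and Mt2, Mt1, Tuba1a and Ftl1 stand out among abundant genes that rose.

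None of the 4 genes of p38 isoforms was called on day 1. Mapk14, the main p38 kinase of fibroblasts, stood at 54 and 46 in DMSO and 51 and 55 in p38i (difference 0.09 ± 0.07, limma adjusted p = 0.488). Mapk13 had 40 and 35 against 37 and 39, while Mapk11 and Mapk12 were between 3 and 6 in every library. Of the 24 tested genes of the p38 pathway, 2 were called higher and 4 lower, where 3.47% and 12.6% of all genes were. Map2k6, which encodes the upstream kinase MKK6, rose from 7 in both DMSO libraries to 11 in both p38i libraries (1.57-fold, adjusted p = 0.00433). Mknk2, a kinase that acts on the translation factor eIF4E below p38 and ERK, rose from 69 and 66 to 90 and 94. The groups did not overlap for either gene, and both were also higher in p38i on days 3, 5 and 7 and in MEFs, by 0.37 to 1.73 on the log2 scale. Those that fell were the transcription factors Mef2c (7 and 7 to 4 and 3) and Mef2a (69 and 65 to 50 and 53), the mRNA-decay factor Zfp36l1 (35 and 35 to 24 and 20) and the kinase gene Map2k4 (57 and 56 to 45 and 50), whose call 9 of 13 alternatives lost.

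Genes that answer to MAP kinase signalling included members called in each direction. Among the 22 tested AP-1 and immediate early genes 3 were called higher and 2 lower, where 3.47% and 12.6% of all genes were. Egr1, an immediate early zinc finger factor, had 21 and 17 in DMSO and 51 and 43 in p38i, with no overlap (difference 1.27 ± 0.28, adjusted p = 0.00329). Jund rose from 102 and 96 to 146 and 149, and Maff from 29 and 43 to 48 and 53, whereas the orphan receptor gene Nr4a1 fell from 41 and 36 to 25 and 23 and the AP-1 subunit gene Fosl2 from 22 and 21 to 16 and 15. Fos (5 and 5 against 6 and 5) and Jun (74 and 68 against 78 and 73), the founding members of AP-1, were not called. Of 20 genes of MAP kinase feedback 7 fell, led by Phlda1 (168 and 161 to 119 and 106), Spry1 (6 and 8 to 5 and 4) and the ERK-responsive factors Etv4 and Etv5. The Etv4 call was lost in 7 of 13 alternatives and the Spry1 call in 5 of 13. The ERK phosphatase gene Dusp5 rose from 24 and 23 to 33 and 35. Without DMSO replicate 1 the count that fell was 4.

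Metallothioneins, small proteins that bind zinc and copper, stood far apart between the groups. Mt2 stood at 387 and 358 in DMSO and 1137 and 1183 in p38i, a 3.11-fold difference (1.64 ± 0.05, limma adjusted p = 4.96e-14). Mt1 stood at 614 and 652 against 1639 and 1653, or 2.6-fold (1.38 ± 0.06, adjusted p = 1.15e-11). Both p38i libraries were far above both DMSO libraries for each gene, and the calls held in each of 13 alternative settings. Mt3, a further member, had 7 and 5 against 17 and 13 and was not called (adjusted p = 0.131). Other genes of zinc handling were mostly not called. Of 17 tested genes of the list, Mt1 and Mt2 were the 2 called higher, and 2 importer genes fell, Slc39a10 (26 and 29 to 18 and 18) and Slc39a14 (81 and 78 to 60 and 66). Slc30a1, a zinc exporter that is itself a known target of the metal-responsive factor MTF1, had 7 and 7 against 6 and 6, and Mtf1 had 12 and 9 against 10 and 9, neither called. The metal element core was present in the promoter windows of Mt1 and Mt2, in 10 of the 17 genes of the list that had a window (58.8%) and in 40.8% of tested genes with one, so these short letters are common. Here and for the motifs given later, windows also took in the 50 bases after the start and both strands were searched.

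**Figure D2:**
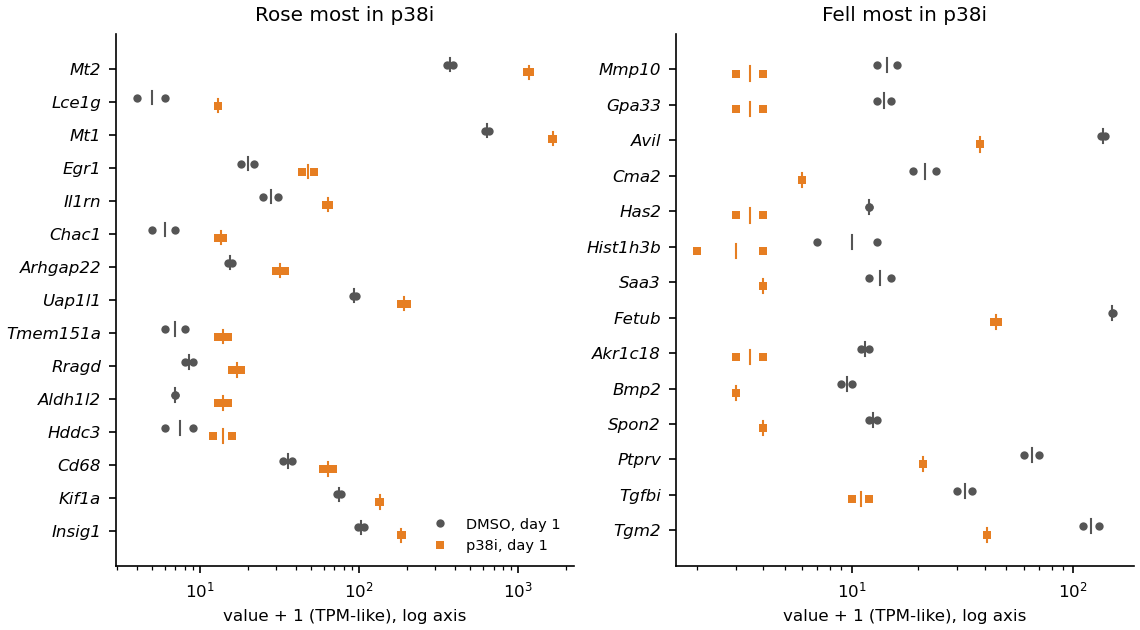
Value of each library (plus 1, log axis) for the 15 genes that rose most and the 14 named genes that fell most, with DMSO as grey circles, p38i as orange squares and the mean of each pair as a short line. In every gene shown both p38i libraries lie on one side of both DMSO libraries, because only such genes were chosen.

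Genes of cholesterol and fatty acid synthesis were mostly called higher. Of 32 tested, 22 were called higher and none lower, with a median difference of 0.38 against -0.085 over all genes. Insig1, which holds the sterol sensor SCAP in the endoplasmic reticulum, rose from 107 and 97 to 181 and 186 (1.8-fold, limma adjusted p = 4.89e-07). Enzymes of the pathway followed. Lss, lanosterol synthase, rose from 63 and 61 to 107 and 112, Mvd, which makes isopentenyl diphosphate, from 77 and 80 to 131 and 133, and Dhcr7, which completes cholesterol, from 66 and 60 to 99 and 101. Nsdhl (121 and 124 to 181 and 189), Sqle (130 and 118 to 167 and 174) and the fatty acid synthase gene Fasn (196 and 191 to 300 and 286) also rose with no overlap. Groups apart in this direction were found in 13.5% of all genes tested. Members not called included Hmgcs1, an early enzyme of the pathway, with 146 and 135 against 151 and 151, and Srebf2, the gene of its main transcription factor, with 116 and 113 against 107 and 114. The letters TCACNCCAC of a sterol element were in 1 of the 21 genes of the list that had a promoter window and in 1.43% of tested genes with one.

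Lysosomal genes, many of which are targets of the factors TFEB and TFE3, rose in number but by little. Of 47 tested, 28 were called higher and 1 lower, with a median difference of 0.23. Rragd, a GTPase of the lysosomal nutrient sensor, led with 8 and 7 in DMSO and 17 and 15 in p38i (2.13-fold, adjusted p = 0.000248). Gpnmb, a membrane glycoprotein of lysosomes, rose from 66 and 63 to 99 and 108, and Neu1, a sialidase, from 65 and 63 to 88 and 101. Other members that rose were Lamp1, the main lysosomal membrane protein (1129 and 1106 to 1293 and 1275), Ctsd, the protease cathepsin D (1621 and 1573 to 1950 and 2010), and the calcium channel gene Mcoln1 (53 and 50 to 68 and 57). All of these had both p38i libraries above both DMSO libraries, which held for 13.5% of all genes tested. Tfe3 was the member that fell, from 64 and 64 to 46 and 49, and Tfeb, with 13 and 11 against 9 and 14, was not called. CACGTG was in the promoter windows of 15 of 37 genes of the list (40.5%) against 11.7% of tested genes, and in 9 of the 20 called higher and 6 of the 16 not called. Subunits of the V-ATPase, the proton pump that acidifies lysosomes, were listed after their values had been seen, and 13 of 18 were higher and none lower. Atp6v0d1, for example, rose from 248 and 244 to 327 and 347. Cd68, a lysosomal protein used as a macrophage marker, rose from 37 and 32 to 58 and 68.

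Of 41 tested targets of ATF4, the factor of the integrated stress response, 18 were called higher and 3 lower (median 0.26). Atf4 itself rose from 149 and 169 to 206 and 200 (adjusted p = 0.00101). Other transcription factors of the response followed, Ddit3 (CHOP), from 60 and 58 to 98 and 97, and Atf5, from 55 and 54 to 91 and 86. Other members that rose were Aldh1l2, an enzyme of one-carbon metabolism, from 6 and 6 to 12 and 14, Psph, the last enzyme of serine synthesis, from 31 and 34 to 50 and 53, and the alanyl-tRNA synthetase gene Aars from 136 and 126 to 179 and 179. Chac1, which degrades glutathione, rose from 6 and 4 to 12 and 13 (adjusted p = 0.0342), a call that 9 of 13 alternatives lost. Asns, a standard target, had 187 and 179 against 191 and 203 and was not called. Those that fell were Gdf15 (13 and 13 to 6 and 8), Cth (45 and 40 to 25 and 26) and Ddit4. The CARE letters were in 12 of the 34 genes of the list with a window (35.3%) against 2.67% of tested genes with one. Among genes with a window, they were in 4 of the 13 called higher (Aars, Chac1, Pck2 and Trib3) and 7 of the 17 not called. Endoplasmic reticulum chaperones were called lower in 7 of 20 and higher in none, where 12.6% of all genes were lower. Their median was -0.10, near the -0.085 over all genes, and 5 were lower under either other scaling. The count was 4 without DMSO replicate 1 or p38i replicate 1. Hsp90b1 fell from 517 and 486 to 405 and 405 and the sensor gene Atf6 from 37 and 36 to 27 and 26, while Hspa5, the main chaperone of that response, had 374 and 362 against 377 and 385 and was not called.

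**Figure D3:**
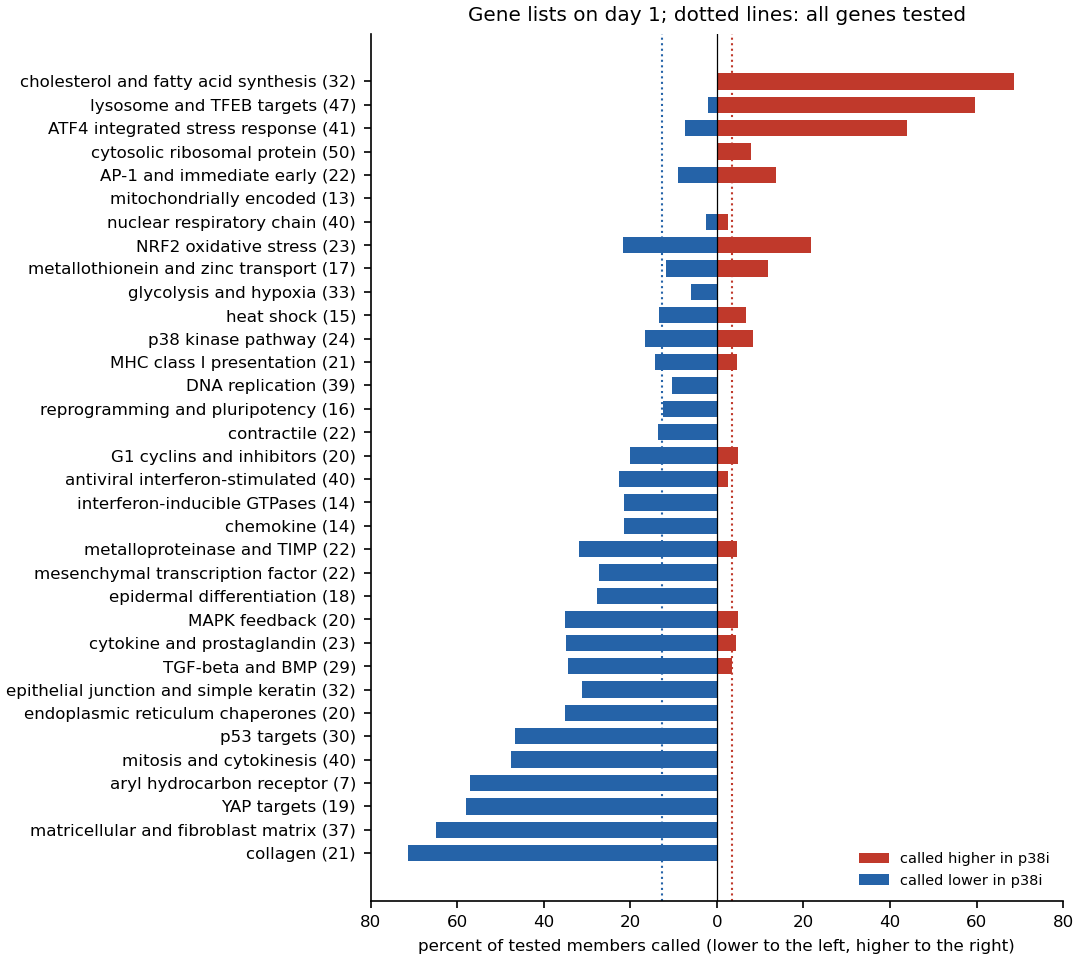
Percent of the tested members of the pathway lists (number tested in brackets; the proliferin, tubulin, V-ATPase and cell marker lists are not drawn) called higher, to the right, or lower, to the left, in p38i on day 1, with the shares over all genes tested, 3.47% and 12.6%, as dotted lines. Cholesterol synthesis (22 of 32 higher), lysosome (28 of 47) and ATF4 targets (18 of 41) reach furthest right of the lists drawn, and collagen (15 of 21 lower) and fibroblast matrix (24 of 37) furthest left.

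Genes of oxidative defence moved both ways. Of 23 tested NRF2 genes 5 were higher and 5 lower, where 3.47% and 12.6% of all genes were. Ftl1, the ferritin light chain and one of the most abundant transcripts, rose from 10340 and 10179 to 15845 and 15668 (1.54-fold, adjusted p = 1.89e-09), and Hmox1, heme oxygenase, from 172 and 185 to 250 and 247. Srxn1, which repairs oxidised peroxiredoxins, rose from 163 and 157 to 217 and 228. The gene of NRF2 itself, Nfe2l2, fell from 188 and 184 to 133 and 143, and the detoxifying enzyme gene Gsta4 from 410 and 418 to 273 and 290. Of 7 genes of the aryl hydrocarbon receptor 4 fell and none rose. Aldh3a1, an aldehyde dehydrogenase, had 836 and 775 in DMSO and 298 and 306 in p38i (2.67-fold lower, adjusted p = 5.92e-13), and Cyp1b1 had 20 and 19 against 13 and 14. Cyp1a1, the standard target of the receptor, was listed at 0 in all 4 libraries.

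Among the pathway lists, those of the extracellular matrix had the largest shares called lower, the proliferin pair aside. Of 21 tested collagen genes 15 were called lower and none higher, with a median of -0.52. Col3a1, a fibrillar collagen of connective tissue, fell from 341 and 320 to 127 and 134 (2.53-fold lower, limma adjusted p = 7.67e-10). Col1a2 fell from 1731 and 1611 to 1088 and 1080, Col1a1 from 1392 and 1318 to 969 and 981, and Col6a1 from 541 and 507 to 331 and 334. The groups did not overlap for any collagen named here, and 33.8% of all genes tested were lower with no overlap. Of 37 tested matricellular and other matrix genes 24 were lower and none higher (median -0.44). Thbs1, thrombospondin, had 290 and 289 against 118 and 115 (2.48-fold lower, adjusted p = 4.86e-11). Tgfbi fell from 34 and 29 to 9 and 11, Postn, periostin, from 71 and 64 to 34 and 34, and Has2, the hyaluronan synthase, from 11 and 11 to 3 and 2. Sparc, abundant in matrix-making cells, fell less, from 2403 and 2355 to 1973 and 1987. Tgm2, which crosslinks matrix proteins, fell from 129 and 110 to 40 and 40.

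Enzymes that remodel the matrix also included falling members. Of 22 metalloproteinase and TIMP genes 7 were lower and 1 higher, where 12.6% and 3.47% of all genes were. Mmp10 fell from 15 and 12 to 2 and 3 (difference -2.06 ± 0.21, adjusted p = 1.06e-06), Mmp3 from 27 and 37 to 10 and 12, and the inhibitor gene Timp3 from 437 and 408 to 299 and 294. The AP-1 letters TGACTCA or TGAGTCA were in 5 of the 16 genes of this list with a window (31.2%) against 4.67% of tested genes with one. Of 29 genes of TGF-beta and BMP signalling 10 fell and 1 rose. Fst, follistatin, which binds activins, fell from 375 and 361 to 151 and 155 (2.4-fold lower, adjusted p = 4.88e-09), Bmp2 from 9 and 8 to 2 and 2, and Skil, a feedback inhibitor, from 24 and 22 to 13 and 13. Targets of the coactivator YAP were lower in 11 of 19 (median -0.26), among them Nt5e (106 and 101 to 61 and 60) and Cyr61 (124 and 121 to 91 and 82). The YAP count was 4 and 5 under the other 2 scalings and 4 without DMSO replicate 1 or p38i replicate 2, and Ctgf (198 and 189 against 190 and 161) and Ankrd1 (21 and 21 against 15 and 16), its standard targets, were not called.

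**Figure D4:**
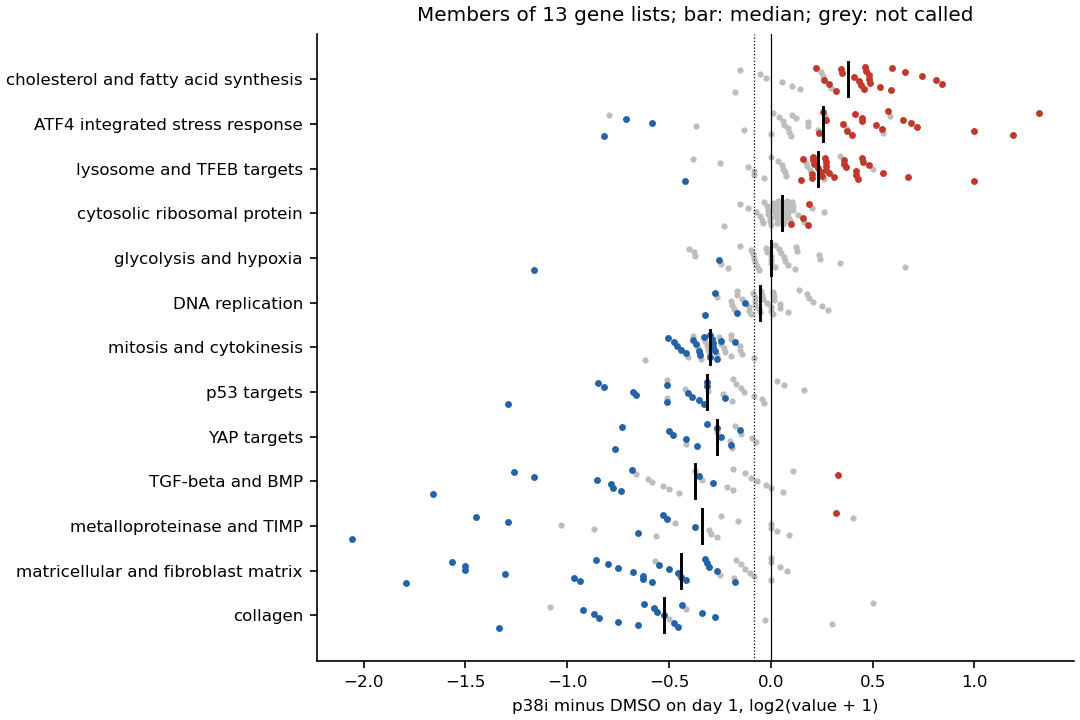
Difference between p38i and DMSO on day 1, log2(value + 1), for each tested member of 13 lists, coloured red where called higher and blue where called lower, with the list's median as a bar and that of all genes, -0.085, as a dotted line. The medians run from 0.38 for cholesterol and fatty acid synthesis to -0.52 for collagen, and the members of mitosis and of YAP targets keep to the left of 0.

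Factors that keep the mesenchymal state were mostly not called. Of 22 tested, 6 were lower and none higher, where 12.6% of all genes were lower. The count that was lower was 2 without DMSO replicate 1 and 3 without p38i replicate 2. Prrx1, a homeobox factor of embryonic mesenchyme, fell from 194 and 184 to 120 and 115 (1.61-fold, adjusted p = 4.02e-06) and Prrx2, a call that 7 of 13 alternatives lost, from 17 and 13 to 8 and 8. Twist1 stood at 189 and 179 in DMSO and 180 and 175 in p38i, Zeb1 at 19 and 16 against 18 and 19 and Snai2 at 21 and 19 against 17 and 19, so the groups met or overlapped for all 3 and none was called. Epithelial junction and keratin genes were lower in 10 of 32 and higher in none. Cdh1, E-cadherin, had 10 and 11 against 3 and 4 (adjusted p = 7.25e-09). The tight junction scaffold gene Tjp1 also fell, from 52 and 54 to 39 and 40, and Dsp, desmoplakin, went from 45 and 38 to 27 and 27, a call that 10 of 13 alternatives lost. Krt8 had 2 and 2 against 0 and 1, a low value, and Cldn3 did not exceed 1. Gpa33 and Avil, an antigen of gut epithelium and an actin-binding protein of the villin family, were among the genes that fell most. Avil stood at 138 and 132 against 37 and 37 (3.65-fold lower, adjusted p = 3.59e-14) and Gpa33 at 14 and 12 against 3 and 2.

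Genes of cell division were slightly and widely lower. Of 40 tested mitosis and cytokinesis genes 19 were lower and none higher, and in 38 of them both p38i libraries lay below both DMSO libraries, which held for 33.8% of all genes tested. The median was -0.30. Bub1b, a kinase of the spindle checkpoint, fell from 40 and 40 to 28 and 29 (1.4-fold lower, adjusted p = 0.000423). Cdc20, which activates the anaphase-promoting complex, fell from 150 and 156 to 104 and 118, Top2a, topoisomerase II, from 116 and 114 to 89 and 87, and Anln, an actin-binding protein of the cleavage furrow, from 132 and 111 to 86 and 92. Ccnb1, the mitotic cyclin, had 103 and 109 against 92 and 93 and was not called. The count of 19 was 11 under either other scaling, 7 without DMSO replicate 1, 8 without p38i replicate 1 and 3 in a fit of the 4 libraries alone. DNA replication genes were lower in 4 of 39, where 12.6% of all genes were, and in none under either other scaling or without DMSO replicate 1, DMSO replicate 2 or p38i replicate 1. The alpha- and beta-tubulin genes, which were grouped after their values had been seen, were all higher, 11 of 11, with a median of 0.48. Tuba1a rose from 2250 and 2281 to 3506 and 3679 (1.59-fold, adjusted p = 2.95e-09) and Tubb5 from 1446 and 1424 to 1961 and 2033. Tuba1a, Tuba1b and Tuba1c have near-identical copies in each other, and so do Tubb2a and Tubb2b, so the split between them is uncertain.

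Of 30 tested p53 targets 14 were lower and none higher (median -0.31). Cdkn1a, the cell cycle inhibitor p21, fell from 971 and 950 to 771 and 758 (1.26-fold lower, adjusted p = 3.32e-05). Mdm2, which degrades p53, fell from 254 and 238 to 200 and 195, Fas, a death receptor, from 13 and 12 to 6 and 7, and Ckap2, a spindle protein, from 129 and 125 to 76 and 82. Trp53 had 174 and 158 in DMSO and 144 and 150 in p38i. Its groups did not overlap, but it was not called (difference -0.17 ± 0.07, adjusted p = 0.0833). The count of p53 targets was 9 without DMSO replicate 1. Among G1 regulators Ccnd3, cyclin D3, fell from 412 and 413 to 320 and 335 and Rb1, the retinoblastoma gene, from 34 and 32 to 22 and 22, while Cdk4 rose from 327 and 353 to 394 and 372.

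Inflammatory and interferon genes included lower members on day 1. Of 23 cytokine and prostaglandin genes 8 fell and 1 rose, where 12.6% and 3.47% of all genes were called lower and higher. Ptgs2, cyclooxygenase 2, whose messenger RNA is known to be stabilised through p38, fell from 133 and 125 to 70 and 69 (1.86-fold lower, adjusted p = 2.61e-06). Saa3, an acute-phase protein, fell from 14 and 11 to 3 and 3, Ereg, an EGF receptor ligand, from 26 and 26 to 14 and 13 and Lif, a cytokine of the interleukin 6 family, from 8 and 7 to 3 and 3. Il1rn, the antagonist of the interleukin 1 receptor, rose from 30 and 24 to 61 and 64 (adjusted p = 0.000757). The chemokine gene Ccl7 fell from 205 and 210 to 105 and 113. Of 40 antiviral interferon-stimulated genes 9 were lower (4 without p38i replicate 2) and 1 higher, with Ifitm3 falling from 297 and 327 to 223 and 219 and Stat2 rising from 15 and 15 to 23 and 20.

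Among markers of other cells, those of macrophages were lower in 5 of 15 tested and higher in 1, where 12.6% and 3.47% of all genes were. The macrophage markers summed to 311 and 297 in DMSO and to 218 and 228 in p38i. Lyz2 fell from 171 and 161 to 90 and 90 and Laptm5 from 28 and 23 to 16 and 16, whereas the defining genes Ptprc, Cd163 and Fcgr1 were too low to be tested, with Cd163 and Fcgr1 listed at 0 in all 4 libraries and Ptprc at 0 and 2 in DMSO and 0 in both p38i libraries. Marco, a scavenger receptor of macrophages, went from 8 and 7 to 1 and 0. Hbb-y, an embryonic globin gene, fell from 604 and 632 to 251 and 266 (adjusted p = 2.7e-09). It was the only tested gene of the 8 erythroid markers, of which 6 were listed at 0 in all 4 libraries. Neural markers split, with Nefl falling from 158 and 154 to 72 and 70 and Tubb3 rising from 243 and 222 to 344 and 383. Among the introduced factors, Pou5f1 had 2996 and 2822 against 2314 and 2295 (adjusted p = 3.3e-05) and Klf4 777 and 697 against 635 and 605 (adjusted p = 0.0486, a call that 10 of 13 alternatives lost), while Sox2, at 1075 and 975 against 905 and 855, was not called (adjusted p = 0.469). The part of these cells and of the introduced factors in the differences given above was not tested.

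Other lists held few calls, beside 3.47% of all genes called higher and 12.6% called lower. Of 33 glycolysis and hypoxia genes 2 were lower and none higher, and of the 13 mitochondrially encoded genes none was called. Several of these mitochondrial genes have near-identical copies, so their values are uncertain. The nuclear respiratory chain had 1 higher and 1 lower of 40, and the heat shock list 1 higher and 2 lower of 15, with Cryab, a small heat shock protein, rising from 2295 and 2204 to 2760 and 2823. Of 50 cytosolic ribosomal protein genes 4 were higher and none lower, 11 after median centring and 1 after quantile normalization. Contractile genes were called lower in 3 of 22, with a median of -0.02 against -0.085 over all genes. Tpm1, tropomyosin, was one of the 3 and went from 743 and 752 to 600 and 567. Acta2, smooth muscle actin, had 841 and 901 against 922 and 964 and was not called. Epidermal genes fell in 5 of 18, but in 3 without any 1 of the 4 libraries and in 2 with the other pseudocount. Krt13, one of them, went from 35 and 29 to 16 and 17, a call that 6 of 13 alternatives lost. The proliferin genes Prl2c2 (61 and 70 to 34 and 29) and Prl2c3 (60 and 69 to 27 and 28) both fell, and as near-identical copies their split is uncertain.

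The day 1 differences were next set beside those of days 3, 5 and 7 and of MEFs treated with the inhibitor before any induction, each measured in other libraries with controls of their own. Of the 459 genes called higher on day 1, 237 (51.6%) were higher on day 3 too, where 5.22% of all genes were, 230 (50.1%) on day 5, where 7.87% were, and 271 (59%) on day 7, where 16.5% were. In MEFs 154 (33.6%) were higher and 37 (8.06%) lower, against 9.73% and 8.15% of all genes. Of the 1669 genes called lower, 948 (56.8%) were lower on day 3, against 16.2% of all genes. On day 5 it was 818 (49%), against 18.7%, and on day 7 it was 539 (32.3%), against 17.6%. By day 7, 247 (14.8%) were higher, where 16.5% of all genes were. In MEFs 344 (20.6%) were lower and 198 (11.9%) higher, against 8.15% and 9.73% of all genes. Read from the other side, the shared genes were 34.3% of those higher on day 3, 12.4% of those higher on day 7, 44.2% of those lower on day 3 and 23.2% of those lower on day 7. The inhibitor's difference changed between days 1 and 3 in 369 genes (2.79%) and between days 1 and 7 in 2863 (21.6%), and between MEFs and day 1 in 1894 (14.3%).

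**Figure D5:**
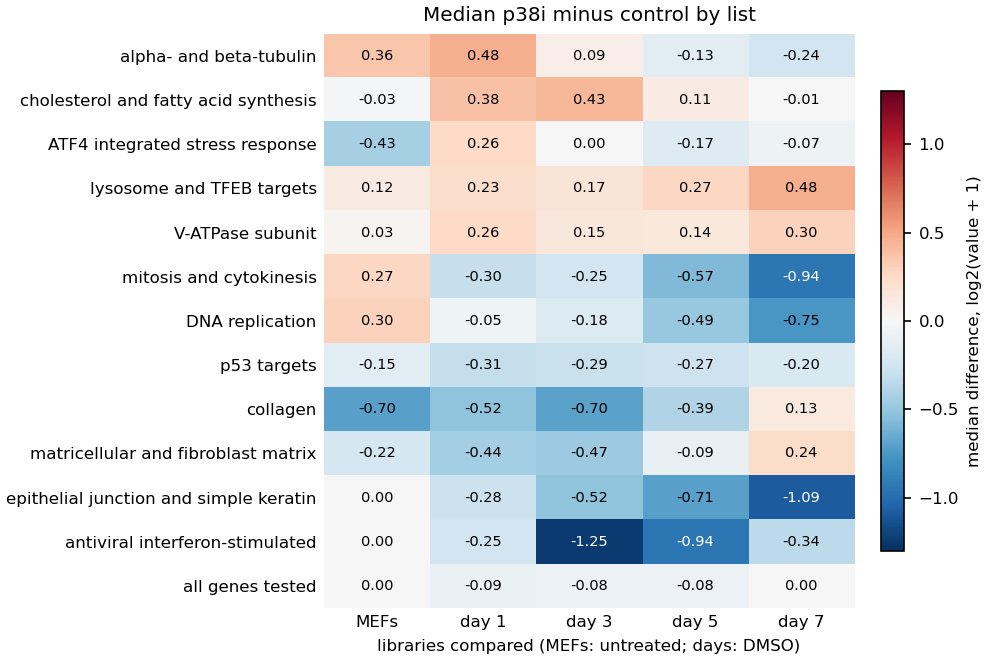
Median difference between inhibitor and control, log2(value + 1), of 12 lists and of all genes tested in MEFs and on days 1, 3, 5 and 7, each column from libraries of its own. ATF4 targets (-0.43 in MEFs, 0.26 on day 1) and mitosis genes (0.27 and -0.30) have opposite signs in MEFs and on day 1. The interferon-stimulated genes stand at -1.25 on day 3. Of these 40 genes 8 were listed at 0 in all 4 day 1 libraries, so their medians are not compared between days.

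ATF4 targets stood apart most plainly from MEFs. There 28 of 41 were lower under the inhibitor and none higher, and the difference between day 1 and MEFs was positive in 30 of 41 by its own test, where 3.47% of all genes were. Ddit3 differed by 0.72 on day 1 and by -0.26 in MEFs, and Atf5 by 0.69 and -0.75. By day 3 the list's median was 0.00, with 9 members lower than on day 1 by the test of the difference, where 2.09% of all genes were. The cholesterol list behaved otherwise, with 23 of 32 higher on day 3 and a median of -0.03 in MEFs. Lss, for example, differed by 0.81 on day 1, 0.74 on day 3, 0.03 on day 5 and -0.11 in MEFs, and 16 of 32 members had a larger difference on day 1 than in MEFs. Of the 47 lysosomal genes 23 were higher on day 3, with a median of 0.17 against 0.23 on day 1, and none passed the test of the difference, where 0.703% of all genes stood higher and 2.09% lower. On day 7 the median was 0.48, and 20 of 47 were further raised by that test. Ctsd went from 0.31 on day 1 to 0.64 on day 7 and Gpnmb from 0.67 to 1.12, with 1.70 in MEFs.

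For mitosis genes the sign differed before induction. In MEFs 18 of 40 were higher under the inhibitor and none lower, and the test of the difference was negative in 29 of 40, against 10.8% of all genes. On day 7 all 40 were lower, and 34 were lower than on day 1, against 7.55% of all genes. Bub1b differed by 0.31 in MEFs, -0.48 on day 1 and -1.01 on day 7. Collagen and matrix genes narrowed or turned by day 7, when 14 of 21 and 28 of 37 members stood higher relative to day 1 by the test of the difference, against 14.1% of all genes. Col3a1 went from -1.33 on day 1 to -0.13 on day 7, and Thbs1 from -1.31 to -0.26. Of the antiviral interferon-stimulated genes 38 of 40 were lower on day 3, but 8 of the 40 were listed at 0 in all 4 day 1 libraries and could not be lower then. Of the tested interferon-inducible GTPases, which restrict pathogens inside cells, 14 of 14 were lower on day 3 and 3 on day 1, and 8 of the 15 listed were at 0 in all 4 day 1 libraries. Such genes passed the filter through other groups, so the days are not compared by these counts. Irgm1, one of them, differed by -0.50 on day 1 and -2.02 on day 3. In antigen presentation by MHC class I, 20 of 21 tested genes were lower on day 3 and 3 on day 1, with 4 of the 22 listed at 0 in all 4 day 1 libraries, and B2m, the light chain of these molecules, was higher on day 1 (1183 and 1195 to 1353 and 1343).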

How the data were processed

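RNA-seq was measured in 28 libraries of 14 groups with 2 replicates each. Per the submitters' processing notes, bcl2fastq, Bowtie2 2.2.5 and RSEM 1.3.0 were used with the builds mm10 and hg38, without their roles, and the labels and the study's methods differ on the library kit version and on the RNA extraction. The authors deposited 1 table of 50600 genes, whose values were taken as a score: whole numbers that fit TPM rounded down, which is inferred from their totals. TPM keeps no depth, so no counting interval could be given, and rounding weighs most on low genes.

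From these values log2(value + 1) was fitted with limma 3.58.1 (R 4.3.3; lmFit and eBayes with a trend) over the 13230 genes whose values averaged 1 or more, using the 14 groups jointly (14 residual degrees of freedom) and Benjamini-Hochberg adjustment, calling genes at an adjusted p under 0.05. Every p given without another name is from this fit, which was tested on simulated data. Differences between the inhibitor's effects were contrasts of it. The genes said to have risen or fallen most had a mean of at least 5 and groups that did not overlap, and the others named are the listed members. The members and lists were chosen with earlier results of these data known, and the tubulin and V-ATPase lists after their values had been seen. Near-identical copies were sought with BLAST 2.17.0. Numbers shared by replicates were checked for pairing: deviations of same-numbered libraries of the 2 day 1 groups correlated at 0.0265, and at -0.0838 to 0.0874 over all pairs of groups, so the numbers were not taken to pair libraries. Alternatives changed the pseudocount, filter, scaling, libraries fitted, variance prior and block, and left out each day 1 library in turn. Some members of the lists are counted but not reported here by name.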

Additional observations from a re-analysis of the deposited data

Results flagged for a closer look

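Differences between the inhibitor's effect on day 1 and its effect elsewhere were flagged because the difference itself passed the limma test (adjusted p under 0.05, 2 libraries a group). Over all genes this held for 369 between days 3 and 1, for 2863 between days 7 and 1 and for 1894 between day 1 and MEFs. Values below are the later or induced effect minus the other, log2(value + 1), for the 30 genes that rose or fell most on day 1. Since these were picked for large day 1 differences, subtracting those same values, as for days 3 and 7, favours the opposite sign. Where the MEF effect is subtracted from them instead, the same picking favours the sign of the day 1 effect.

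For day 3 minus day 1, 6 genes were flagged. The effect was smaller on day 3 for 3 that had risen, Mt2 (-0.7754), Cd68 (-0.6946) and Mt1 (-0.5031), and for 3 that had fallen, Fetub (0.3668), Avil (0.963) and Mmp10 (1.1778).

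For day 7 minus day 1, 14 genes were flagged, all with a sign opposite to that of the day 1 effect. Among those that had risen were Mt2 (-1.5074), Lce1g (-1.408), Aldh1l2 (-1.3182), Mt1 (-0.9746) and Insig1 (-0.5127). Among those that had fallen were Gpa33 (0.5737), Tgm2 (0.8523), Ptprv (1.1006), Fetub (1.1034), Has2 (1.5), Tgfbi (1.7386), Avil (1.7817), Mmp10 (2.1205) and Gm20388 (5.3702). Lce1g was listed at 0 in all 4 libraries of day 7, so its value is the day 1 difference with its sign turned.

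For day 1 minus MEFs, 17 genes were flagged. The difference was negative for Gm20388 (-6.3106), Spon2 (-2.3502), Gpa33 (-2.0112), Avil (-1.8392), Tgfbi (-1.8274), Saa3 (-1.7459), Akr1c18 (-1.7297), Bmp2 (-1.661), Cma2 (-1.3315), Ptprv (-1.2867) and Fetub (-0.7373). Gpa33, Avil, Saa3 and Akr1c18 were listed at 0 in all 4 MEF libraries, and Bmp2, Cma2 and Fetub at 0 or 1, so for the first 4 and Bmp2 the value only restates the day 1 difference, and for Cma2 and Fetub it rests on next to no signal in MEFs. It was positive for Kif1a (0.4119), Mt2 (0.584), Cd68 (0.6083), Insig1 (0.9543), Chac1 (2.0519) and Aldh1l2 (2.1328). Gm20388 was listed at 24 and 20 in DMSO and at 0 in both p38i libraries on day 1, so its fitted values depend on the pseudocount and are no fold. It also overlaps Galnt2, with 3856 identical bases. Galnt2 had 176 and 172 against 171 and 176, and the split of reads between the 2 genes is uncertain.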

How the results depend on the processing

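The day 1 count of 2128 was 1549 to 2092 under another pseudocount, filter, scaling or variance prior. It was 853 in a fit of the 4 libraries compared, 1155 in a fit of the 6 libraries of day 1 and 1150 to 1643 with 1 library left out (1150 without DMSO replicate 1, 1299 without p38i replicate 2). A 2-fold minimum left 248 genes, and for the differences between effects 159 (days 3 and 1), 611 (days 7 and 1) and 476 (day 1 and MEFs). With 1 library left out those differences counted 248 to 271, 2083 to 2568 and 1323 to 1632 genes. The cause of these changes was not tested beyond the fewer libraries fitted.

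With the replicate number as a block the day 1 count was 1913, and those of the differences 301, 2609 and 1678. The numbers were not taken to pair libraries.

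Over 202 named genes and up to 13 alternatives each, 2174 results kept their direction and side of the threshold, 445 lost the call, 1 gained it (Trp53 without DMSO replicate 2) and 1 turned, Rpl8 under quantile normalization (-0.024, adjusted p = 0.7217). In the fit of 4 libraries 13 lysosomal, 9 cholesterol and 7 ATF4 genes were called higher, and 7 collagen, 13 matrix, 4 p53 and 3 mitosis genes lower.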
